A study of Mus musculus with 12 samples.

Results

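Expression of 8 genes of the epithelial sodium channel and its control by mineralocorticoid hormone was examined in mouse colonic organoids. The genes were chosen by name for their part in this pathway, with earlier results of these data known, and were found in the table through their Ensembl identifiers in the GENCODE vM21 annotation of GRCm38. They are 8 of the 48795 genes listed, and 7 of the 8 passed the filter on low values (at least 3 libraries with a value of 10 or more) that 14856 genes passed. Crypts of the colon, isolated from AhR-deficient (KO) mice or wild-type (WT) mice on the C57BL/6 background, were embedded in a gel and grew into organoids, which are hollow epithelial structures. AhR, the aryl hydrocarbon receptor, is a ligand-activated transcription factor that senses dietary, microbial and environmental compounds. Differentiated organoids had been kept for 3 days without Wnt-3A, and stem cell organoids (called stem below) were grown with Wnt-3A, Noggin, R-spondin-1 and EGF. Total RNA was sequenced in 3 libraries for each of the 4 groups, KO differentiated, WT differentiated, KO stem and WT stem. The labels do not say how the AhR gene was disrupted, or whether replicates came from separate mice or cultures, so p-values measure the spread between these libraries, which may be technical. In such bulk RNA, fewer cells of a type and less RNA per cell cannot be told apart.

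The epithelial sodium channel lets sodium enter absorptive cells from the gut lumen and is built from α, β and γ subunits, encoded by Scnn1a, Scnn1b and Scnn1g. Aldosterone acts through the mineralocorticoid receptor (Nr3c2), and the enzyme encoded by Hsd11b2 inactivates glucocorticoids that would otherwise occupy that receptor. The kinase SGK1 is induced by the hormone and restrains the ubiquitin ligase NEDD4-2 (Nedd4l), which removes the channel from the membrane, while the membrane-anchored protease prostasin (Prss8) activates the channel by cleavage. In the rat distal colon, aldosterone raises the β and γ subunit mRNAs, and channel activity there is a feature of surface cells.

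Values are normalized counts, that is, read counts scaled to a common level for all libraries. Whole reads could be recovered from them and lay between 25.1 and 99.0 M per library. Ahr itself had 3824, 3356 and 3110 normalized counts in KO differentiated libraries, against 2127, 2236 and 2260 in WT differentiated libraries. In KO stem libraries it had 2503, 2831 and 2690, against 1762, 1746 and 1909 in WT stem libraries. Ahr was thus higher in the libraries labelled KO in both conditions, and these gene-wide counts cannot check whether part of the gene was deleted. All 6 epithelial markers were present, with summed counts of 447683 to 1093100 per library. WT stem library 1 stood apart: its 9 fibroblast markers summed to 22002, against 632 in KO stem library 3 and 49.2 to 143 in the other 10 libraries, and 1 of the 9 markers (Lum) was at 0 in all libraries. Its smooth muscle markers summed to 530, against at most 12.2 elsewhere. Changes of the 8 genes that use this library are therefore given also without it.

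Differentiation changed most of the 8 genes in both genotypes. Against stem organoids, Nr3c2, Hsd11b2, Sgk1, Nedd4l and Prss8 were higher in differentiated organoids and Scnn1a was lower, in KO and in WT alike. In KO organoids, 5 of the 7 genes tested rose and 1 fell, where 67.7% of all 14856 genes were called (34.1% up, 33.6% down). In WT organoids the count was again 5 up and 1 down of 7, where 72.2% of all genes were called (36.3% up, 35.9% down). Calls are limma results with an adjusted p (Benjamini-Hochberg, over the 14856 genes) under 0.05. The median change of the 7 genes was 0.76 in KO and 0.90 in WT organoids on the log2 scale, beside 0.01 and 0.01 over all genes tested. Values of differentiated and stem libraries did not overlap for 6 of the 7 genes in KO, as for 74.3% of all genes, and for 6 of the 7 in WT, as for 75% of all genes. Without WT stem library 1 the counts of called genes stayed at 5 up and 1 down in each genotype.

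Between KO and WT organoids, the genes called were not the same in differentiated and stem cultures, and Prss8 was called in both. Such a difference in calls does not show a difference in effect, which the interaction below tests. In differentiated organoids, Nr3c2, Hsd11b2 and Nedd4l were lower in KO and Prss8 was higher, so 3 of 7 fell and 1 rose, where 27.6% of all genes were called (13.8% up, 13.9% down). KO and WT differentiated values did not overlap for any of the 7 genes tested, a separation seen for 53.1% of all genes. In stem organoids, Scnn1a and Prss8 were higher in KO and none was lower, so 2 of 7 rose, where 6.57% of all genes were called (3.48% up, 3.09% down). KO and WT stem values did not overlap for 3 of 7 genes (Scnn1a, Prss8 and Hsd11b2), beside 29.5% of all genes. The median KO against WT change of the 7 genes was -0.15 in differentiated and 0.17 in stem organoids on the log2 scale, beside 0.02 and -0.04 over all genes. Whether the KO effect differed between the conditions was tested as an interaction, which called 1 of 7 genes, Scnn1a, where 8.7% of all genes were called (5.12% up, 3.58% down). The KO against WT comparisons share their libraries with the differentiated against stem comparisons.

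**Figure D1:**
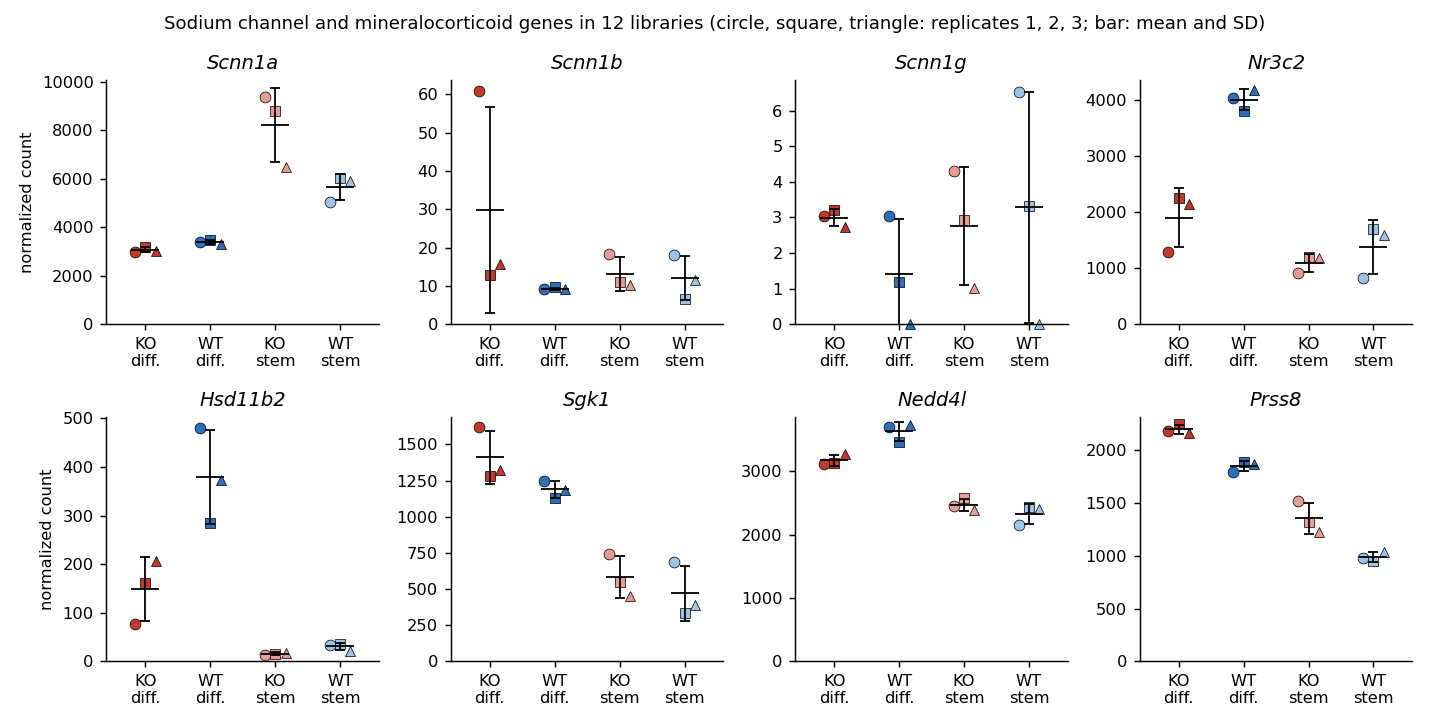
Normalized count of each of the 8 genes (vertical axis, linear, from 0) in the 12 libraries, with points for libraries, a bar for the group mean and whiskers of 1 SD (n = 3). KO stem libraries sit highest for Scnn1a (6475 to 9377), WT differentiated libraries highest for Nr3c2 (3799 to 4173) and Hsd11b2 (285 to 479), and Scnn1g stays below 7 in every library.

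Among the channel subunits, only Scnn1a, the α subunit needed for a working channel, was expressed at a high level. Scnn1a (ENSMUSG00000030340, chr6:125320659-125344943, plus strand) had 2993, 3186 and 3019 normalized counts in KO differentiated libraries, against 3402, 3465 and 3321 in WT differentiated libraries. Stem libraries of KO organoids had 9377, 8787 and 6475, against 5049, 6016 and 5900 in WT stem libraries. The order was KO stem, WT stem, WT differentiated and KO differentiated, and no neighbouring groups in that order overlapped. Differentiated organoids held 0.373 times the stem level in KO (log2 change -1.40 ± 0.12 SE, adjusted p = 1.02e-06, limma). In WT they held 0.600 times the stem level (-0.73 ± 0.12, adjusted p = 1.51e-04), and -0.81 without WT stem library 1. Scnn1a was thus the member of the group that fell on withdrawal of Wnt-3A while the receptor and the regulators rose.

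In stem organoids Scnn1a was 1.45 times as high in KO as in WT (log2 change 0.52 ± 0.12, adjusted p = 0.0244, limma). That call held without WT stem library 1 (0.44, adjusted p = 0.0482) but was lost without KO stem library 1 (adjusted p = 0.103) or KO stem library 2 (adjusted p = 0.0984), the libraries with the highest values. It was also lost in a limma fit of the stem libraries alone (adjusted p = 0.143). In differentiated organoids KO values were below WT values without overlap, but the change did not pass the test (-0.15, 95% interval -0.41 to 0.11, adjusted p = 0.374), except in a fit of the differentiated libraries alone (adjusted p = 0.0407). The difference between these 2 effects, equal to the difference between the KO and WT responses to differentiation, was -0.67 ± 0.17 (interaction, adjusted p = 0.0334, limma). It was lost on leaving out any of 8 of the 12 libraries in turn, with an adjusted p of at most 0.0809, and was -0.59 without WT stem library 1 (adjusted p = 0.0460).

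Scnn1b and Scnn1g, encoding the β and γ subunits that carry the channel to full activity, were low in every group, Scnn1g near the limit of detection. Scnn1b (ENSMUSG00000030873, chr7:121865038-121918514, plus strand) had 60.9, 12.8 and 15.7 normalized counts in KO differentiated libraries, against 9.15, 9.56 and 9.09 in WT differentiated libraries. KO stem libraries held 18.3, 11.01 and 10.2, against 17.9, 6.65 and 11.5 in WT stem libraries. Apart from KO differentiated library 1, with 80 reads, these values came from 4 to 34 reads per library. None of the 4 comparisons passed the test, although the KO differentiated values all lay above the WT differentiated ones (log2 change 1.24 ± 0.53, 95% interval 0.07 to 2.41, adjusted p = 0.105, limma). That change passed with DESeq2 on recovered reads (1.69, adjusted p = 0.0487) and with a term for replicate number in limma (adjusted p = 0.0456). Without KO differentiated library 1 the change in the main limma fit was 0.57 (adjusted p = 0.394). None of the 4 passed without WT stem library 1 either (adjusted p at least 0.0801). KO differentiated library 1 was also the library of its group with the lowest surface colonocyte markers, as given below.

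Scnn1g (ENSMUSG00000000216, chr7:121734479-121768475, plus strand) was not tested, since it did not pass the filter. It had 4, 3 and 4 reads in KO differentiated libraries (3.05, 3.21 and 2.73 normalized counts), against 4, 1 and 0 in WT differentiated libraries (3.05, 1.19 and 0). The KO stem libraries gave 8, 4 and 1 reads (4.31, 2.94 and 1.02 normalized counts), against 4, 3 and 0 in WT stem libraries (6.52, 3.32 and 0). A count of 0 allows up to 3 reads, which is 6.81 normalized counts in WT differentiated library 3 and 3.46 in WT stem library 3, so no group difference was detectable at this depth. Counting error alone is covered by that limit.

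Levels of different genes were compared per kilobase of exon. On that scale the Scnn1b level was 0.173% to 3.20% of the Scnn1a level in the same library, with a median of 0.426%, and the Scnn1g level was 0% to 0.178%, with a median of 0.0699%. The Scnn1b to Scnn1a ratio was higher in differentiated than in stem libraries by 1.35 on the log2 scale on average (2.22 in KO, 0.48 in WT). Much of this came from Scnn1a, which fell by -1.40 in KO and -0.73 in WT. Scnn1b itself was called in neither genotype (0.82 in KO and -0.25 in WT), so a higher ratio does not show a rise of Scnn1b. An exact two-sided permutation test within genotypes gave p = 0.02 and an adjusted p of 0.08 over the 4 ratio tests made. The same ratio in KO against WT libraries within conditions differed by 0.52 on the log2 scale (exact permutation p = 0.385, adjusted p = 0.513), an average of 1.39 in differentiated and -0.35 in stem libraries. Without WT stem library 1 the difference between differentiated and stem libraries was 1.55 and passed (adjusted exact permutation p = 0.02). The subunit mRNAs were far from equal in every library.

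**Figure D2:**
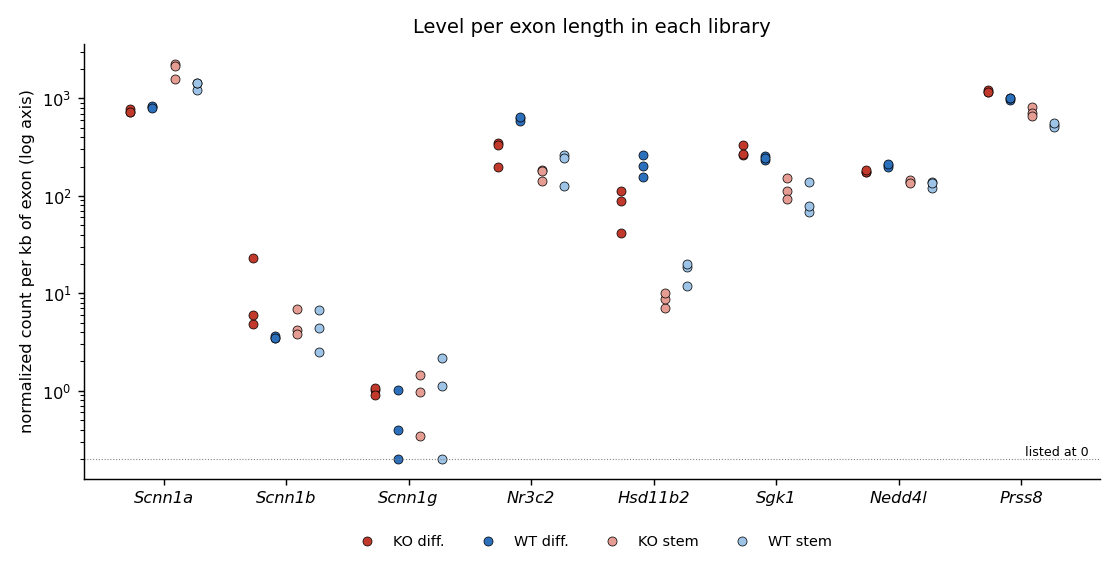
Normalized count per kilobase of exon (vertical log axis) of the 8 genes in each of the 12 libraries, coloured by group. Scnn1a (724 to 2269) and Prss8 (513 to 1214) are the highest of the 8, and Scnn1b and Scnn1g lie far below the α subunit in all 4 groups.

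Prss8, encoding prostasin, the protease that cleaves the γ subunit, was higher in KO organoids in both conditions. Prss8 (ENSMUSG00000030800, chr7:127925716-127930104, minus strand) had 2177, 2249 and 2166 normalized counts in KO differentiated libraries, against 1794, 1887 and 1872 in WT differentiated libraries. Among stem libraries, KO ones had 1519, 1322 and 1230, against 980, 950 and 1040 in WT stem libraries. The 4 groups did not overlap, in the order KO differentiated, WT differentiated, KO stem and WT stem. In stem organoids the KO level was 1.37 times the WT level (log2 change 0.45 ± 0.08, adjusted p = 0.00608, limma), and this held on leaving out any library in turn (adjusted p at most 0.0292). That call was lost in a limma fit of the stem libraries alone (adjusted p = 0.0811). In differentiated organoids the KO level was 1.19 times the WT level (0.25 ± 0.08, adjusted p = 0.0333), a call that was lost without any of the 6 differentiated libraries (adjusted p at most 0.105).

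Prss8 also rose on differentiation, to 1.62 times the stem level in KO (0.70 ± 0.08, adjusted p = 8.38e-06, limma) and 1.87 times in WT (0.90 ± 0.08, adjusted p = 7.34e-07). These responses were not shown to differ (interaction -0.20, 95% interval -0.44 to 0.03, adjusted p = 0.249). Leaving out WT stem library 1 gave 0.44 for KO against WT stem, 0.90 for the WT response and -0.20 for the interaction. The strand use of the counting is not given in the sources used here, and Prss8 shares 122 exon bases, 6.59% of its exon length, with Kat8 on the opposite strand. Kat8 averaged 582 in KO and 596 in WT differentiated libraries, and 710 in KO and 860 in WT stem libraries, so its group means ran in the opposite order to those of Prss8.

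Nr3c2, the mineralocorticoid receptor, was lower in KO than in WT organoids once they had differentiated. Nr3c2 (ENSMUSG00000031618, chr8:76899442-77245012, plus strand) had 1290, 2255 and 2132 normalized counts in KO differentiated libraries, against 4030, 3799 and 4173 in WT differentiated libraries. In the stem condition, KO libraries had 909, 1190 and 1177, against 820, 1698 and 1593 in WT stem libraries. All 3 WT differentiated libraries lay above every other library, the KO differentiated values overlapped with WT stem values, and KO and WT stem values overlapped with each other. The KO differentiated level was 0.473 times the WT differentiated level (log2 change -1.12 ± 0.27, adjusted p = 0.0113, limma), and that call held on leaving out any library in turn (adjusted p at most 0.0447). In stem organoids the change was -0.27 (95% interval -0.85 to 0.32, adjusted p = 0.572), and -0.60 without WT stem library 1, which had the lowest value of its group (adjusted p = 0.0892).

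Differentiation raised Nr3c2 to 1.73 times the stem level in KO (0.76 ± 0.27, adjusted p = 0.0250, limma) and to 2.92 times in WT (1.62 ± 0.27, adjusted p = 1.90e-04). Without WT stem library 1 the WT change was 1.28. The KO call was lost without KO differentiated library 2 (adjusted p = 0.0946), KO differentiated library 3 (0.0829) or KO stem library 1 (0.0887). The difference between the KO and WT responses was -0.85 ± 0.38 and did not pass the test (interaction, adjusted p = 0.173), and was -0.52 without WT stem library 1 (adjusted p = 0.245). The antisense gene Gm10649 shares 247 exon bases with Nr3c2 but was listed at no more than 8.36 in any library.

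Hsd11b2, the enzyme that shields the receptor from glucocorticoids, showed the widest range of the 7 genes tested. Hsd11b2 (ENSMUSG00000031891, chr8:105518755-105523988, plus strand) had 76.9, 161 and 207 normalized counts in KO differentiated libraries, against 479, 285 and 373 in WT differentiated libraries. In KO stem libraries it had 12.9, 16.1 and 18.3, against 34.2, 36.6 and 21.9 in WT stem libraries. The 4 groups did not overlap, in the order WT differentiated, KO differentiated, WT stem and KO stem. Its level in differentiated organoids was 9.39 times the stem level in KO (log2 change 3.05 ± 0.35, adjusted p = 1.22e-05, limma). In WT it was 12.3 times the stem level (3.57 ± 0.35, adjusted p = 2.41e-06), and these responses were not shown to differ (interaction -0.52, 95% interval -1.60 to 0.56, adjusted p = 0.527). Leaving out WT stem library 1 gave 3.66 for the WT response and -0.61 for the interaction.

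In differentiated organoids the KO level of Hsd11b2 was 0.391 times the WT level (-1.43 ± 0.35, adjusted p = 0.0123, limma). The call was lost without WT differentiated library 1, the highest of its group (adjusted p = 0.0535), and held on leaving out any of the other 11 libraries. In stem organoids, where 18 to 33 reads per library lay behind each value, the change was -0.91 ± 0.35 and did not pass the test (adjusted p = 0.140, and -0.82 without WT stem library 1). Receptor and enzyme were therefore both lower in KO differentiated than in WT differentiated libraries, and both remained above the stem level of their own genotype.

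The summed level of markers of surface colonocytes, the mature absorptive cells, had the same order of groups as the means of Nr3c2 and Hsd11b2. Nr3c2 followed it only in part. Its KO differentiated and WT stem values overlapped, as did its KO and WT stem values, while the marker sums of these groups did not overlap. The 6 markers on the list (Krt20, Aqp8, Slc26a3, Car1, Car4 and Guca2a) summed to 13876, 28177 and 40241 in KO differentiated libraries, against 129013, 88277 and 140580 in WT differentiated libraries. In KO stem libraries they summed to 60.9, 78.5 and 92.6, against 465, 372 and 608 in WT stem libraries. Aqp8 was at 0 in all 3 WT stem libraries, and the other 5 markers were present in every group. Car1 made up most of the differentiated sums, averaging 18521 in KO and 84448 in WT. Car4, at low counts, went the other way on differentiation in KO, averaging 2.59 in differentiated and 7.94 in stem libraries, while the other 5 rose. KO differentiated library 1 had the lowest marker sum of the differentiated libraries and also the lowest Nr3c2 and Hsd11b2 of its group. Crypt stem cell markers (Lgr5, Ascl2, Axin2 and Smoc2) ran the other way in differentiated organoids. They summed to 8644, 6997 and 7352 in KO differentiated libraries, against 4271, 4124 and 3927 in WT differentiated libraries, without overlap. In stem organoids their sums overlapped, with 11843, 13447 and 15105 in KO and 9174, 16833 and 14245 in WT libraries. The part of cell type numbers in the receptor and enzyme results was not tested.

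**Figure D3:**
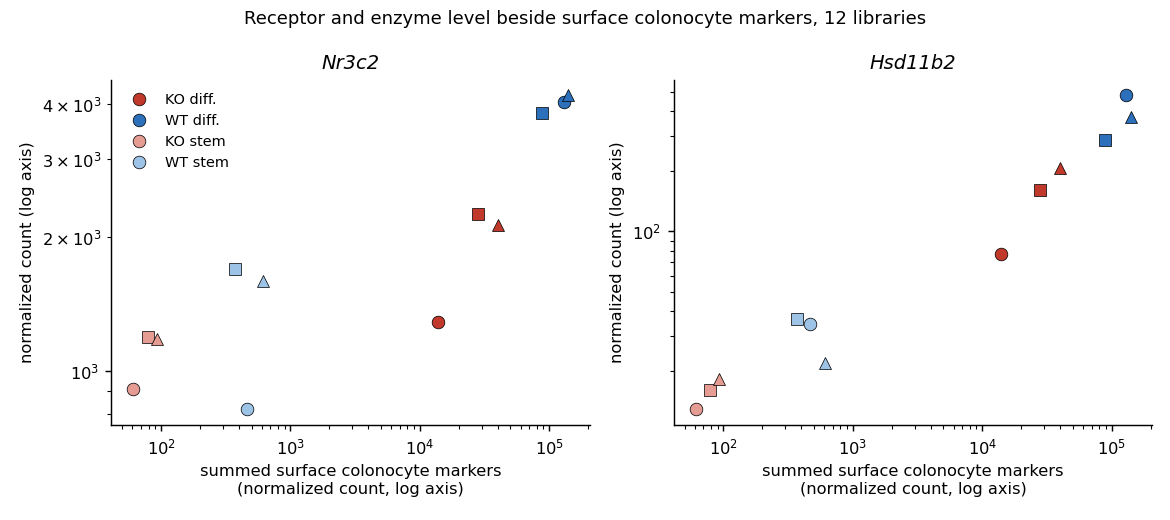
Normalized counts of Nr3c2 and Hsd11b2 (vertical log axes) against the summed normalized count of 6 surface colonocyte markers (horizontal log axis), 1 point per library, with colours for groups and a circle, square or triangle for library 1, 2 or 3. The WT differentiated libraries lie at the upper right (marker sums of 88277 to 140580), the KO differentiated libraries between 13876 and 40241, and all 6 stem libraries at 608 or below.

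RefSeq promoter windows (250 bases before to 50 after a transcription start, GRCm38.p6) were searched for 4 of the 8 genes, with 9 windows. No window of Scnn1a, Hsd11b2, Nedd4l or Prss8 was searched, so nothing is said here about their promoters. The windows were searched on both strands for GCGTG, the core of the element bound by AhR with its partner ARNT, and for a palindrome bound by mineralocorticoid and glucocorticoid receptors (AGAACA, any 3 bases, then its reverse complement TGTTCT). The Nr3c2 window held 1 GCGTG, beginning 213 bases before the start, and the Sgk1 gene had 2 of 6 windows with GCGTG. The Scnn1b and Scnn1g windows held neither motif. GCGTG was present in 32.4% of all 32851 windows, so a match is common. The palindrome was present in 3 of the 32851 windows (0.00913%), and 1 of those 3 belonged to Sgk1, 189 bases before the start used in that window. Both windows are shown because Nr3c2 is the receptor, lower in KO differentiated organoids, and Sgk1 is its hormone-induced target, with GCGTG in capitals in the Nr3c2 window (chr8:76902080-76902379, plus strand) and the palindrome in capitals in the Sgk1 window (chr10:21993640-21993939, plus strand).
Nr3c2: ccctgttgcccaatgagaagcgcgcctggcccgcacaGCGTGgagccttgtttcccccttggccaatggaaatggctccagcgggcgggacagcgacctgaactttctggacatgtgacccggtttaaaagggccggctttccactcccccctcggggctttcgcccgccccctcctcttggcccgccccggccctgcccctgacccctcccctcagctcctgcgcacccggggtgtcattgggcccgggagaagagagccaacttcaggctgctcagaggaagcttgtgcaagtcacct
Sgk1: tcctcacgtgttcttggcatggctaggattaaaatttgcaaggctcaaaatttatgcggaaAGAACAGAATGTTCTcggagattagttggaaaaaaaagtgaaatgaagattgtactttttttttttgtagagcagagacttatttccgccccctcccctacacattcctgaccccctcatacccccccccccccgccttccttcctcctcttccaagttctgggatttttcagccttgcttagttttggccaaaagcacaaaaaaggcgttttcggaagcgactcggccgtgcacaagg

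Sgk1, the hormone-induced kinase, rose on differentiation, and no KO against WT change passed the test. Sgk1 (ENSMUSG00000019970, chr10:21882184-21999903, plus strand) had 1622, 1283 and 1326 normalized counts in KO differentiated libraries, against 1249, 1131 and 1188 in WT differentiated libraries. Stem libraries of KO organoids had 740, 550 and 454, against 688, 337 and 389 in WT stem libraries. The differentiated libraries all lay above the stem libraries, and KO and WT stem values overlapped. Differentiated organoids held 2.43 times the stem level in KO (log2 change 1.30 ± 0.24, adjusted p = 5.17e-04, limma) and 2.52 times in WT (1.40 ± 0.24, adjusted p = 2.43e-04). Without WT stem library 1, the highest of its group, the WT change was 1.71.

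KO differentiated values of Sgk1 lay above WT differentiated values without overlap, but the change of 0.24 did not pass the test (95% interval -0.29 to 0.77, adjusted p = 0.487, limma). In stem organoids the KO against WT change was 0.34 (95% interval -0.18 to 0.87, adjusted p = 0.401). Without WT stem library 1, which carried the fibroblast markers, it was 0.65 with an adjusted p of 0.0453, and the members that rose in KO stem organoids were then 3 of 7 instead of 2. In differentiated organoids Nr3c2 and Sgk1 thus had KO against WT changes of opposite sign, of which that of Nr3c2 passed the test.

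Nedd4l, the ubiquitin ligase that removes the channel, varied least over the 12 libraries. Nedd4l (ENSMUSG00000024589, chr18:64887705-65217828, plus strand) had 3110, 3134 and 3280 normalized counts in KO differentiated libraries, against 3697, 3464 and 3732 in WT differentiated libraries. KO stem libraries held 2447, 2581 and 2387, against 2147, 2439 and 2405 in WT stem libraries. Differentiated libraries lay above stem libraries in both genotypes, and KO and WT stem values overlapped. Differentiation raised it to 1.28 times the stem level in KO (log2 change 0.36 ± 0.06, adjusted p = 3.12e-04, limma) and 1.56 times in WT (0.64 ± 0.06, adjusted p = 2.42e-06). The KO differentiated level was 0.874 times the WT differentiated level (-0.19 ± 0.06, adjusted p = 0.0402), a call lost on leaving out any of 6 libraries in turn (adjusted p at most 0.132) and under 4 other settings. The interaction was -0.28 ± 0.09 (adjusted p = 0.0713). In stem organoids the KO against WT change was 0.09 (95% interval -0.05 to 0.22, adjusted p = 0.420). Leaving out WT stem library 1 gave 0.029 for that change, 0.58 for the WT response and -0.22 for the interaction.

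**Figure D4:**
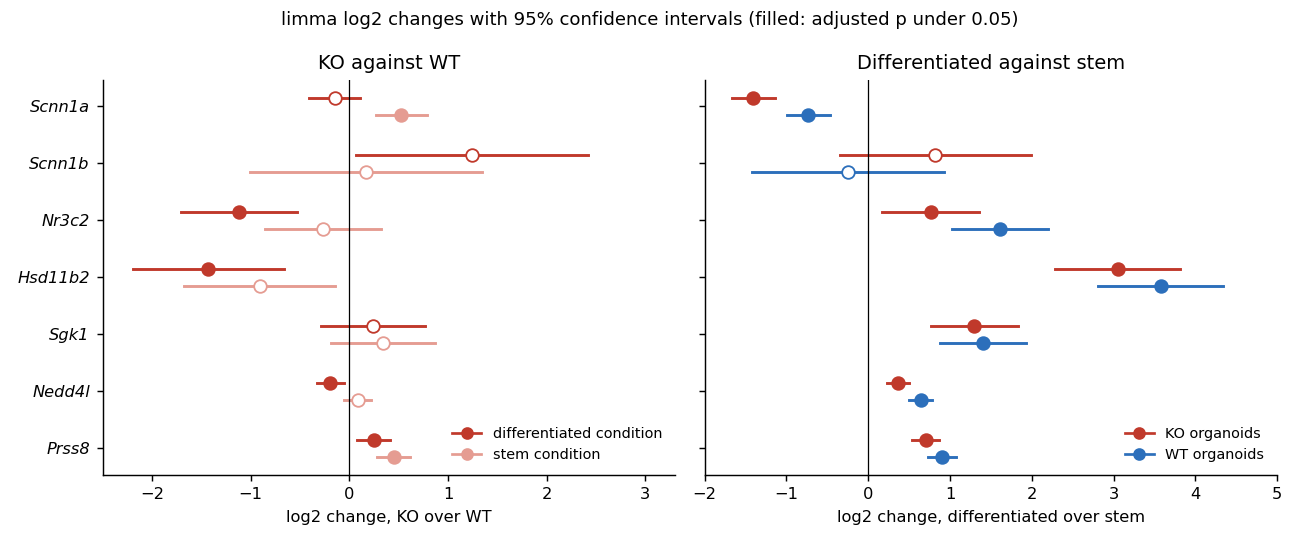
limma log2 changes (horizontal axes) with 95% intervals for the 7 genes tested, KO over WT on the left (differentiated dark, stem light) and differentiated over stem on the right (KO red, WT blue), filled where the adjusted p is under 0.05. On the right every gene but Scnn1a and Scnn1b is called above 0, and on the left Nr3c2 (-1.12) and Hsd11b2 (-1.43) are called below 0 in differentiated organoids, while Prss8 is called above 0 in both conditions.

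Other genes of the pathway were taken from 7 lists. The shares of all genes beside which their counts stand are, for KO against WT, 13.8% up and 13.9% down in differentiated and 3.48% up and 3.09% down in stem organoids, with median changes over all genes of 0.02 and -0.04 on the log2 scale. For differentiated against stem organoids they are 34.1% up and 33.6% down in KO, and 36.3% up and 35.9% down in WT. Of 9 proteases and inhibitors that act on the channel, 2 rose and 2 fell in KO against WT differentiated organoids, and 1 rose in stem organoids, where 27.6% and 6.57% of all genes were called (list medians 0.10 and 0.08). The gene that rose in stem organoids, Tmprss13, a membrane serine protease, had the largest KO rise of the list in both conditions. It averaged 59.7 in KO and 11.2 in WT differentiated libraries (log2 change 2.17 ± 0.41, adjusted p = 0.00412, limma). In stem libraries it averaged 51.0 in KO and 10.04 in WT (2.28 ± 0.41, adjusted p = 0.00863). Furin, the convertase that cleaves the channel inside the cell, rose on differentiation in KO (14518 against 5420 in stem, log2 change 1.42 ± 0.10, adjusted p = 2.88e-07). Furin was also called up in WT (13538 against 5137 in stem). Serpine2, a protease inhibitor, averaged 22.7 in WT differentiated and 83.3 in WT stem libraries (-1.48 ± 0.48, adjusted p = 0.0160), and its change was -0.80 without WT stem library 1. Without that library the list had 2 up and 3 down in KO against WT differentiated organoids, and 1 up and 1 down in stem organoids.

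Of 11 ubiquitin ligases, adaptors and deubiquitylases, 4 fell and none rose in KO against WT differentiated organoids, and none was called in stem organoids, where 13.9% and 3.09% of all genes fell (list medians -0.10 and -0.07). The largest fall was that of Ndfip2, an adaptor of the NEDD4 family, with 6811 in KO and 10716 in WT differentiated libraries (log2 change -0.66 ± 0.11, adjusted p = 0.00258, limma). On differentiation 8 of the 11 rose and 3 fell in KO, and also in WT, where 67.7% (KO) and 72.2% (WT) of all genes were called. Among those that fell was Uchl3, a deubiquitylase, with -0.90 in KO (adjusted p = 6.53e-07) and -1.10 in WT (adjusted p = 8.85e-08). When WT stem library 1 was left out, the list had 1 fall in KO against WT stem organoids.

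Of 11 kinases of the SGK, mTORC2 and WNK families and their partners, 1 rose and 4 fell in KO against WT differentiated organoids, and none was called in stem organoids, where 27.6% and 6.57% of all genes were called (list medians -0.15 and -0.04). Sgk2, a relative of Sgk1, averaged 306 in KO and 765 in WT differentiated libraries (log2 change -1.36 ± 0.20, adjusted p = 0.00141, limma). In WT it averaged 197 in stem libraries, so it rose on differentiation (1.97 ± 0.20, adjusted p = 4.19e-06). Sgk2 was also called up in KO (306 against 151 in stem). The KO against WT change of Sgk1 in differentiated organoids was 0.24 and did not pass, and the difference between both genes was not tested. The list had 2 up and 5 down in differentiated organoids without WT stem library 1. Wnk4, a kinase that regulates sodium and chloride transport, rose on differentiation in KO (1494 against 586 in stem, 1.34 ± 0.13, adjusted p = 3.53e-06). Wnk4 was also called up in WT (1463 against 560 in stem).

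Of 9 tested genes for the glucocorticoid receptor, its chaperones and steroid metabolism, 4 rose and 1 fell in KO against WT differentiated organoids, and 1 rose and 2 fell in stem organoids (list medians 0.25 and -0.08). Without WT stem library 1 these counts were 6 and 1 in differentiated and 0 and 1 in stem organoids. The gene that fell in differentiated organoids was Nr3c1, the glucocorticoid receptor, with 4079 in KO and 6194 in WT libraries (log2 change -0.61 ± 0.17, adjusted p = 0.0220, limma). That call was lost without KO differentiated library 1 or WT differentiated libraries 1 or 3 (adjusted p at most 0.0925), and with quantile normalization (adjusted p = 0.0533). Nr5a2, a nuclear receptor that promotes steroid synthesis in the gut, rose on differentiation by 2.85 in KO (adjusted p = 3.96e-05) and 2.19 in WT (adjusted p = 2.59e-04). In KO against WT stem organoids it averaged 31.1 and 77.6 (-1.48 ± 0.38, adjusted p = 0.0402), lost on leaving out any of 9 libraries in turn. The call was also lost with no filter (adjusted p = 0.0617), edgeR (0.0686) and only the groups compared (0.159).

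Of 9 tested genes known to be induced by corticosteroids, 2 rose and 2 fell in KO against WT differentiated organoids and 1 fell in stem organoids (list medians -0.06 and 0.06). Cdkn1c, a cell cycle inhibitor, fell in both, averaging 606 in KO and 1326 in WT differentiated libraries (log2 change -1.14 ± 0.12, adjusted p = 2.77e-04, limma). In stem libraries it averaged 421 in KO and 597 in WT (-0.50 ± 0.12, adjusted p = 0.0342), lost on leaving out any of 8 libraries. The stem call was also lost with edgeR (adjusted p = 0.059) and only the groups compared (0.111). Klf15, a transcription factor and direct glucocorticoid receptor target, went the other way from Sgk1 on differentiation, with 6.69 in KO differentiated and 102 in KO stem libraries (-3.75 ± 0.46, adjusted p = 2.16e-05). Klf15 was also called down in WT (1.55 against 35.0 in stem). The list did not move in 1 direction on differentiation, with 1 up and 2 down of 9 in KO and 2 up and 3 down in WT (1 up and 3 down, and 1 up and 4 down, without WT stem library 1). Of all genes, 67.7% (KO) and 72.2% (WT) were called in these comparisons.

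The sodium pump, which moves sodium out through the basolateral membrane, and its FXYD regulators had 2 genes up and 2 down of 5 tested in KO against WT differentiated organoids, and none called in stem organoids (list medians 0.04 and -0.04). Fxyd5, a pump modulator, averaged 114 in KO and 40.4 in WT differentiated libraries (log2 change 1.44 ± 0.26, adjusted p = 0.00333, limma). Fxyd3 rose on differentiation in KO (5530 against 1409 in stem) and in WT (4020 against 1170 in stem), with log2 changes of 1.98 and 1.78. On differentiation 3 of the 5 rose and 1 fell in each genotype, where 67.7% (KO) and 72.2% (WT) of all genes were called. In WT 2 rose and 1 fell without WT stem library 1. Fxyd4, a regulator of the pump in the rat colon and kidney, did not pass the filter.

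Of 11 other ion transport genes, 3 rose and 5 fell in KO against WT differentiated organoids, and 3 fell in stem organoids (list medians -0.06 and -0.35). Aqp8, a water channel of surface colonocytes, averaged 34.3 in KO and 262 in WT differentiated libraries (log2 change -3.49 ± 0.84, adjusted p = 0.0116, limma). Its call was lost without WT differentiated library 3 (adjusted p = 0.0564) and with DESeq2 (adjusted p = 0.0701). Slc9a2, a sodium and hydrogen exchanger and so an electroneutral route for sodium, averaged 93.2 in KO and 295 in WT stem libraries (-1.66 ± 0.16, adjusted p = 1.96e-04, and -1.62 without WT stem library 1). Slc26a3, the chloride and bicarbonate exchanger of the surface, averaged 242 in KO differentiated and 0.669 in KO stem libraries, against 1272 in WT differentiated and 2.58 in WT stem libraries. On differentiation 8 of the 11 rose and 2 fell in each genotype, where 67.7% (KO) and 72.2% (WT) of all genes were called. When WT stem library 1 was left out, 4 rose and 5 fell in KO against WT differentiated organoids, and 1 rose and 3 fell in stem organoids.

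The genes with the pattern most like each member over the 12 libraries were ranked as a description. The rank is by the root mean square difference of log2 values centred on each gene's mean. Only protein-coding genes that were tested were ranked, leaving out predicted genes with Gm or Rik names. Among the genes closest to Nr3c2 were Anks4b (0.15) and B4galnt2 (0.18). Closest to Hsd11b2 were Tlr1 (0.24), Vdr (0.25) and Zc3h12d (0.29), and closest to Scnn1a were Etfbkmt (0.13), Tdrp (0.17) and Car2 (0.17). Vdr encodes the vitamin D receptor and Car2 a carbonic anhydrase. For Prss8 the nearest were Camk1 (0.10), Arap1 (0.12) and Rfx5 (0.12), and for Sgk1 they were Lrrc8a (0.18), Il20rb (0.19) and Zswim4 (0.19). Nedd4l, which varied least, had Tmem59 (0.04), Erlin2 (0.05) and Arhgef16 (0.05), and the low-count Scnn1b had Chadl (0.32), Ccn1 (0.34) and Zbtb46 (0.34). No member was among the 3 nearest genes of another member.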

How the data were processed

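The deposited table holds 1 value per gene and library, a signal that the authors made from gene counts by scaling each library with a size factor (normalized counts). The submitters' processing notes name GRCm38, Bowtie2, RSEM 1.2.11 and DESeq2 1.18.1, and the annotation and strand use of the counting are not given in the sources used here. Within a library all values were whole multiples of the same step (100% within 0.05 of a read), and dividing by it recovered the reads per gene. Symbols and positions came from GENCODE vM21, which matched 99.1% of identifiers.

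Groups came from the sample titles. The main test was limma 3.58.1 in R 4.3.3 on log2(normalized count + 1), so fold changes of low genes are understated, with 4 group means, a mean-variance trend and all 12 libraries, for 14856 genes with at least 10 in at least 3 libraries. Genotypes were compared within each condition, conditions within each genotype, and the interaction was tested, giving 5 contrasts, two-sided, adjusted by Benjamini-Hochberg over all genes tested. SE values are from limma. Subunit ratios were compared by exact permutation within strata (400 permutations). Residuals of same-numbered KO differentiated and KO stem libraries correlated at 0.29, 0.19 and 0.26, all over 0.1, which pairs these 6 libraries by number, as a hint from the data and not from the labels. Other group pairs did not meet that bar. WT differentiated and WT stem libraries of the same number correlated at 0.11, 0.06 and 0.14, above their differently numbered pairs. Whether these are paired was not settled, and the main fit used no pairing. The code was tested on simulated data.

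The 8 members and the lists were chosen with earlier results of these data known. From each list the text names the called gene with the largest change per contrast, if its mean was at least 50 in 1 group, together with Ahr and the 3 genes nearest to each member. One of those nearest genes is not reported here. Fxyd4 and the overlapping genes Kat8 and Gm10649 are named outside that rule. Alternatives were pseudocounts of 0.5 and 5, no filter, a mean of at least 50, quantile normalization, TMM factors, edgeR 4.0.16 (quasi-likelihood) and DESeq2 1.42.0 on recovered reads, only the groups compared, leaving out 1 library at a time, and a replicate block over all libraries or within genotype. The counting floor was 3 reads per library.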

Additional observations from a re-analysis of the deposited data

Results flagged for a closer look

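A difference between the KO effects in the 2 culture conditions passed the test (interaction in limma, adjusted p under 0.05, differentiated minus stem) for 6 of the genes named. All but Scnn1a appear here as the called gene with the largest interaction of their list, so this count is not a rate. Of all genes, 8.7% were called, and other called genes of the lists are not named. Scnn1a had an interaction of -0.67 (adjusted p = 0.0334). Kcne3, a potassium channel subunit that works with Kcnq1, had 0.94 (adjusted p = 0.0151) and kept the call on leaving out any library in turn (adjusted p at most 0.0422). It averaged 1107 in KO and 481 in WT differentiated libraries, and 1504 in KO and 1241 in WT stem libraries. The kinase gene Wnk2 had 1.03 (adjusted p = 0.0324), and averaged 739 in KO and 440 in WT differentiated libraries, and 473 in KO and 589 in WT stem libraries. The steroid receptor chaperone gene Fkbp4 had 0.51 (adjusted p = 0.0234). The protease gene Tmprss2 had -0.51 (adjusted p = 0.0340), and Cdkn1c had -0.63 (adjusted p = 0.0462). On leaving out 1 library in turn, the call was lost in 8 of 12 cases for Scnn1a, 7 for Tmprss2, 6 for Wnk2, 3 for Fkbp4 and 10 for Cdkn1c. The Scnn1a call was also lost with no filter (adjusted p = 0.0523). The Tmprss2 call was lost with no filter (0.0587), quantile normalization (0.0671) and the replicate block within genotype (0.0719). The Cdkn1c call was lost with no filter (0.0709), edgeR (0.0501) and the replicate block within genotype (0.0621).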

How the results depend on the processing

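On leaving out 1 library in turn, genes called lay between 363 and 1414 (976 with all libraries) for KO against WT stem, 2233 and 5699 (4103) for KO against WT differentiated, 9267 and 10743 (10059) for differentiated against stem in KO, 10085 and 10840 (10732) in WT, and 342 and 1603 (1292) for the interaction. The lowest counts were reached without KO stem library 1 in the stem comparison and without WT differentiated library 3 in the differentiated comparison and the interaction. Members called lay between 1 and 3, 1 and 4, 5 and 6, 6 and 6, and 0 and 1 in the same order. In stem organoids, KO against WT calls numbered 1984 with DESeq2, 297 with only the groups compared and 1486 with the replicate block, and with only the groups compared 0 members were called (Scnn1a adjusted p = 0.143, Prss8 0.0811). In differentiated organoids, 2 members were called with no filter. The interaction had 750 calls with no filter, 2438 with DESeq2 and 2141 with the replicate block, and 0, 2 and 2 members called. Nedd4l in KO against WT differentiated organoids was lost with no filter (adjusted p = 0.0679), quantile normalization (0.187), TMM factors (0.07) and edgeR (0.0825), and Prss8 there with no filter (0.0521), while Scnn1a there passed with only the groups compared (0.0407). Scnn1b in that comparison passed with DESeq2 (log2 change 1.69, adjusted p = 0.0487). The Scnn1b to Scnn1a ratio in differentiated against stem libraries was 1.32 with a pseudocount of 5 (adjusted exact permutation p = 0.04) and 1.01 to 1.57 on leaving out 1 library, passing without WT stem library 1 (1.55, adjusted exact permutation p = 0.02). The Scnn1g ratio, from few reads, was 0.94 with a pseudocount of 5 (adjusted exact permutation p = 0.04) in that comparison, with 0.42 to 1.203 on leaving out 1 library. In KO against WT the Scnn1g ratio was -0.034 with a pseudocount of 5 and -0.088 to 0.70 on leaving out 1 library, and the Scnn1b ratio 0.17 to 0.73. Changes that were not called also reversed on leaving out 1 library, for Scnn1b in KO against WT stem (-0.17 without WT stem library 2 to 0.49 without WT stem library 1, and below 0 also without KO stem library 1), for Scnn1b in WT differentiated against stem (-0.59 without WT stem library 2 to 0.067 without WT stem library 1), and for Sgk1 in the interaction (-0.41 without WT stem library 1 to 0.10 without WT stem library 2, and above 0 also without KO stem library 1). Only for KO differentiated with KO stem libraries were all same-numbered residual correlations over 0.1. For WT differentiated with WT stem libraries they were 0.11, 0.06 and 0.14, so pairing in WT was not settled. The residual correlation of the 18 same-numbered pairs was -0.05 to 0.29 (median 0.08), 7 of them over 0.1. A library correlated best with its own number in 25 of 36 cases. The replicate block within genotype changed no call of the 8 genes in differentiated against stem organoids of either genotype, and gave an adjusted p of 0.0892 for the Nr3c2 interaction. With the replicate block over all libraries, Nr3c2 passed in the interaction (adjusted p = 0.0492) and Scnn1b in KO against WT differentiated organoids (0.0456). The causes of these changes were not tested. Depth limits Scnn1b and Scnn1g, with at most 8 reads of Scnn1g in any library.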
